A study of Homo sapiens with 6 samples.

Results

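TET2 peaks that were listed in THP-1 cells after OPA1 treatment, that met no TET2 peak of the DMSO control and that lay close to an end of a protein-coding gene are described here. They were chosen by the peak lists themselves. A peak on chromosomes 1 to 22 or X of the TET2 list in OPA1 was kept when it shared no base with a TET2 peak in DMSO and its centre lay within 10000 bp of either end of a protein-coding gene on GRCh38, inside or outside the gene. This left 351 peaks of the 1513 TET2 peaks listed in OPA1 without a DMSO counterpart, among 1687 TET2 peaks in OPA1 and 3606 peaks in all 4 lists. Because presence in one TET2 list and absence from the other selected the peaks, their tags and folds are given as a description with no test.

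THP-1 is an established human acute myeloid leukaemia line with monocytic features. The cells were kept for 48 hours in DMSO, the solvent, or in OPA1, taken here as the submitters' name for an added compound and not as the mitochondrial gene of that symbol, since the labels say only that cells were treated with it. Chromatin was precipitated with an antibody to EGR1 or to TET2 and sequenced beside an input library without antibody, with 1 library for each of the 6 groups. The series concerns demethylation by TET enzymes downstream of opioid receptors in leukaemia cells, and the labels name no genotype.

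TET2 is an enzyme that oxidises 5-methylcytosine, the first step of active DNA demethylation, and it is often mutated in myeloid malignancy. It has no sequence-specific DNA-binding domain of its own and is brought to chromatin by partner proteins. EGR1, an immediate early gene product with zinc fingers, binds GC-rich sites and takes part in monocyte differentiation. Gene starts often lie in CpG islands that are kept free of methylation, while gene bodies are commonly methylated.

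Printed here are the upstream sequences of the 6 genes whose promoter windows were touched by the peaks with the most tags. This leaves out 1 chromosome for which no promoter window was used. The peaks covered all or part of each sequence. Each run holds the 250 bases before a RefSeq transcript start on GRCh38.p14, read 5′ to 3′ on the gene's strand. Capitals mark matches, on either strand, to GGGCGG (the GC box), CCGGAAGT (an ETS site), GAGGAAGT (a PU.1 type site), CCAAT or CACGTG (an E-box). RPL7L1 is printed from chr6:42879366-42879615 on the plus strand, CD1A from chr1:158248086-158248335 on the plus strand and CCND3, at an alternative start, from chr6:41939206-41939455 on the minus strand. CCDC15 is printed from chr11:124953952-124954201 on the plus strand, MED23 from chr6:131628314-131628563 on the minus strand and NIBAN2 from chr9:127579032-127579281 on the minus strand.
RPL7L1: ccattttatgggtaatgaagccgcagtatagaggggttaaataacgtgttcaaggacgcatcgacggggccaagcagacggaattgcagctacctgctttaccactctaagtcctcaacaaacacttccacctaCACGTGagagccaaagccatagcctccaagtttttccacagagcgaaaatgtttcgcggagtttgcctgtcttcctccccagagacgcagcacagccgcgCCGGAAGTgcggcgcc
CD1A: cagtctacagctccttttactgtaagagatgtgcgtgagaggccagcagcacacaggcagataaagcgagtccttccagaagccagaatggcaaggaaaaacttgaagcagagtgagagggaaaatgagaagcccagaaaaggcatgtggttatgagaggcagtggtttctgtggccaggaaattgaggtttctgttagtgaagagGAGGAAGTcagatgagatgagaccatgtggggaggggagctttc
CCND3: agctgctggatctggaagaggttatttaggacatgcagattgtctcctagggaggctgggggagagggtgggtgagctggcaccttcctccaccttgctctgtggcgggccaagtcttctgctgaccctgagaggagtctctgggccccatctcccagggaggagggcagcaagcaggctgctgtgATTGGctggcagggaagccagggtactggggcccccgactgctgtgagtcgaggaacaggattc
CCDC15: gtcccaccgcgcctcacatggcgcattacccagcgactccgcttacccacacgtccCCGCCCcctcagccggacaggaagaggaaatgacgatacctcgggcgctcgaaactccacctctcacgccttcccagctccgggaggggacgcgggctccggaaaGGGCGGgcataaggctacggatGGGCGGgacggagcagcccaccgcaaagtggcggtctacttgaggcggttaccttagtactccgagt
MED23: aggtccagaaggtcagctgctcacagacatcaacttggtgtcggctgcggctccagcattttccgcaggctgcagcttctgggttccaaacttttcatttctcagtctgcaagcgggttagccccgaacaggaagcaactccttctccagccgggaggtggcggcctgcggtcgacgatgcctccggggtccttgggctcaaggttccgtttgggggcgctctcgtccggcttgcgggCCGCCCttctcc
NIBAN2: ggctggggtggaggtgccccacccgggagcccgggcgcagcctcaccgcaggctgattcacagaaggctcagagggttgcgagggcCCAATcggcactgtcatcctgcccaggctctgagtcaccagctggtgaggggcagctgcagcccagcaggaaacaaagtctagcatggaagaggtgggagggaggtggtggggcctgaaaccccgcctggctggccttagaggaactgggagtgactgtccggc

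The run of RPL7L1, a gene for a protein like a component of the large ribosomal subunit, holds an ETS site and an E-box, and 209 of its 250 bases lay under a peak of 27 tags. That of CD1A, which encodes a lipid-presenting molecule of dendritic cells, holds the PU.1 type site and only 2 CG pairs, and 240 bases lay under a peak of 26 tags. The run of CCND3, the gene of cyclin D3, holds CCAAT and 3 CG pairs. Its first 104 bases lay under a peak of 24 tags, and the marked CCAAT lay outside that part. CCDC15, which encodes a coiled-coil protein, has GC boxes and 25 CG pairs, and its peak of 20 tags covered the whole run. MED23, which encodes a subunit of the Mediator complex, has a GC box and 17 CG pairs, with 208 bases under a peak of 17 tags. NIBAN2 has CCAAT and 8 CG pairs, and a peak of 17 tags covered the whole run. The 6 runs thus range from CG-poor to CG-rich.

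In all, 20 of the 351 peaks (5.70%) touched a promoter window of 300 bp (250 bases before to 50 after a listed start). They touched windows of 21 genes. The 351 include 26 peaks on chromosome 8, where no window was used, so these could not count. Some genes on other chromosomes had no window either. In all, 15811 of 19970 protein-coding genes had one, as did the nearest gene of 278 of the 351 peaks. The 5.70% may thus be too low. In the 21 windows the median GC content was 60.7%, beside 62.3% over 22131 windows of the RefSeq table. The median number of CG pairs was 19 beside 21. GGGCGG was found in 12 of the 21 windows (57.1%) and in 56.3% of all windows. CCGGAAGT was found in 5 of 21 (23.8%, Wilson 95% interval 10.6 to 45.1%) and in 5.34% of all windows. POLDIP2 and VMA12, with overlapping windows under 1 peak of 8 tags, both count among these 5, and by peak the ETS site was at 4 of 20 (20.0%, 8.07 to 41.6%). CCAAT was found in 9 of 21 (42.9%) and in 34.6%. The windows touched by these peaks thus resembled the mass of promoters in GC content and GC boxes, while the ETS site stood at a higher share over few peaks.

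The EGR1 site GCGTGGGCG was in none of the 21 windows and in 1.04% of all windows, and the related GCGGGGGCG was in 1 of 21 (WBP2, a WW-domain binding protein) and in 6.50%. GAGGAAGT was in 1 of 21 (CD1A) and in 2.63%. The E-box CACGTG was in 2 of 21 and in 8.34%, and TATAAA was in 2 of 21 and in 9.46%. Neither the site of cAMP-responsive factors TGACGTCA nor the NRF1 site GCGCATGCG was in any of the 21, with 2.26% and 2.36% over all windows. Motifs were searched on both strands of the whole window, so a match need not lie under the peak. GCGGGGGCG can share bases with a GC box, and a match is a description of letters only.

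The first question was how the peaks lay around gene ends. The centres lay 18 to 9993.5 bp from the nearest end, with a median of 3608 bp and quartiles of 1419 and 6586 bp. There were 67 peaks (19.1%) within 1000 bp of an end, 143 (40.7%) between 1000 and 5000 bp and 141 (40.2%) between 5000 and 10000 bp. Of the 351, 183 (52.1%) had their centre inside a protein-coding gene and 24 (6.84%) ran across a gene end. Exons, introns and untranslated regions are not given by the gene table and were not analysed here. Most peaks (257, 73.2%) were within reach of the ends of 1 gene, and 94 (26.8%) of 2 or more genes.

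The strand of the nearest gene was known for 278 peaks. Among these, 152 (54.7%, Wilson 95% interval 48.8 to 60.4%) were nearer to the transcription start and 126 (45.3%) to the last base of the gene. By place, 78 lay upstream of a start, 74 inside the gene after the start, 55 inside before the last base and 71 beyond it. Start and last base were thus the nearer end about equally often, with an interval that includes an even split. In 1000 bp bins, the fullest was the first upstream of starts, with 19 peaks, next to 12 in the first after starts, 11 in the last before the gene's end and 12 in the first beyond it.

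**Figure D1:**
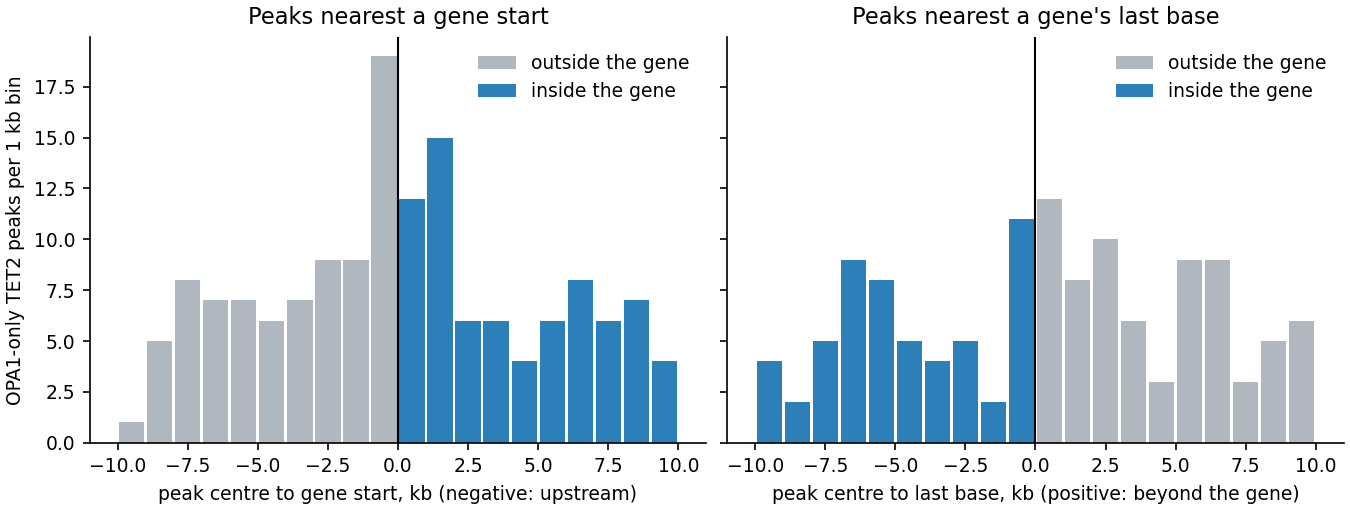
Number of OPA1-only TET2 peaks (vertical axis) in 1000 bp bins of the distance from the peak centre to the nearest gene's start (left) or last base (right), in kb, for the 278 peaks whose nearest gene has a known strand. The bin just upstream of starts holds 19 peaks, and counts are spread out to 10 kb on both sides of both ends.

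Relative to the sequence available, peaks were densest next to gene ends. OPA1-only TET2 peaks stood at 0.924 per Mb (67 peaks, Poisson 95% interval 0.716 to 1.17) within 1000 bp, at 0.720 (47 peaks, 0.529 to 0.958) from 1000 to 2000 bp, at 0.571 (96 peaks, 0.463 to 0.697) from 2000 to 5000 bp and at 0.642 (141 peaks, 0.541 to 0.757) from 5000 to 10000 bp. Beyond 10000 bp there were 0.433 per Mb (1162 peaks, 0.408 to 0.459) of the caller's effective genome of 3210 Mb, which was taken as the total sequence. Peaks and windows were limited to the autosomes and X. Any excess of that total over their length makes densities beyond 10000 bp too low and the ratios to them too high. The size of such a shift was not tested. With this total, the density within 1000 bp was 2.13 times that beyond 10000 bp, and the 2 intervals do not meet. DMSO-only TET2 peaks, which are fewer, had 0.414 per Mb (0.279 to 0.590) within 1000 bp and 0.205 (0.188 to 0.222) beyond, a ratio of 2.02. EGR1 peaks in OPA1 had the same kind of ratio, 2.02, and those in DMSO 1.45. Between 5000 and 10000 bp the ratio was 1.48 for OPA1-only and 1.09 for DMSO-only TET2 peaks (0.223 per Mb, 0.165 to 0.295). A higher density next to gene ends was thus also present in the TET2 peaks listed in the control alone, and the difference between the courses was not tested.

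**Figure D2:**
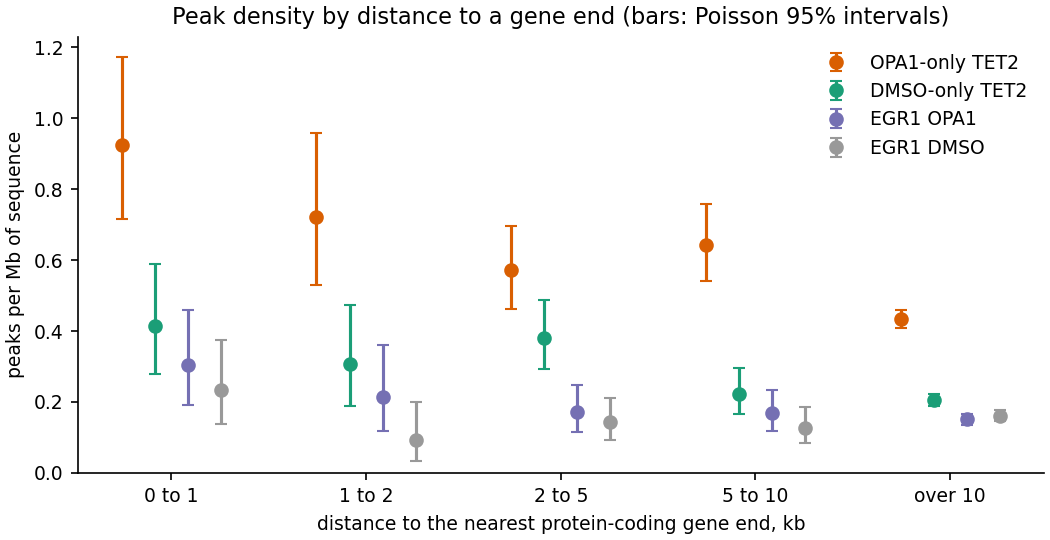
Peaks per Mb of sequence (vertical axis) by distance to the nearest protein-coding gene end in kb, for OPA1-only and DMSO-only TET2 peaks and both EGR1 lists; bars are Poisson 95% intervals. With the caller's effective genome as total, OPA1-only TET2 peaks fall from 0.924 per Mb within 1 kb to 0.433 beyond 10 kb. DMSO-only TET2 peaks fall from 0.414 to 0.205.

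The shares say the same in another way. Of the OPA1-only TET2 peaks 23.2% (Wilson 95% interval 21.1 to 25.4%) lay within 10000 bp of a gene end, while such windows cover 525.5 Mb or 16.4% of the effective genome. A smaller total would raise this cover. The share was 26.5% (45 of 170, 20.4 to 33.6%) for TET2 peaks in OPA1 that met a DMSO peak and 22.9% (163 of 712, 20.0 to 26.1%) for DMSO-only TET2 peaks. For EGR1 it was 20.2% (102 of 506, 16.9 to 23.9%) in OPA1 and 14.8% (75 of 508, 11.9 to 18.1%) in DMSO. The 3 TET2 classes overlap in their intervals, so nearness to gene ends did not set the OPA1-only peaks apart from the other TET2 peaks.

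Most of the 351 peaks held few tags, as did the TET2 list in OPA1 as a whole. They held 8 to 202 tags (sequenced fragments counted in the peak), with a median of 12 and quartiles of 10 and 15, over a median length of 251 bp (131 to 1604 bp). There were 31 peaks at 8 tags, the lowest number in the list, 196 (55.8%) with at most 12, beside 56.0% of all TET2 peaks in OPA1, and 45 (12.8%) with at least 20, beside 14.9%. The median was 11 tags for OPA1-only peaks deep in genes (555) and 11 for those far from genes (607). TET2 peaks in OPA1 that met a DMSO peak had a median of 19 tags, and 84 of those 170 (49.4%) had at least 20. The peaks near gene ends were therefore like the other OPA1-only peaks in size and smaller than the peaks seen in both treatments. With 12 tags counted, the exact Poisson 95% interval runs from 6.20 to 21.0.

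The caller's other values were likewise low in most peaks. Its fold over the local background ran from 4.69 to 26.7 with a median of 10.8, and 32 peaks (9.12%) reached a fold of 15, beside 12.7% of the 1683 TET2 peaks in OPA1 on the same chromosomes. Its score, 10 times the negative log10 of the p-value, ran from 50.03 to 178 with a median of 57.5, and 16 peaks (4.56%) reached 100, beside 7.78% of all TET2 peaks in OPA1. That share was 4.87% for OPA1-only peaks deep in genes, 4.78% for those far from genes and 34.7% for the peaks that met a DMSO peak. The false discovery rate was 0 to 5.61% with a median of 3.68%, and 282 peaks (80.3%) were at or under 5%, beside 80.3% of all TET2 peaks in OPA1. The 163 DMSO-only TET2 peaks near gene ends had a median of 8.02% and a lower quartile of 5.645%. The 2 classes were thus not matched in this value where they are set side by side. By distance, the median was 12 tags within 1000 bp, 12 from 1000 to 5000 bp and 11 from 5000 to 10000 bp, so size did not rise towards the gene end.

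The largest peak by tags stood apart from all others. CITED4, a transcriptional co-activator partner of CBP and p300, had 202 tags (Poisson 95% interval 175 to 232) over 1604 bp at chr1:40860289-40861892, centred 36.5 bp inside the last base of the gene. Its fold of 4.69 was nonetheless the lowest of the 351, with a score of 56.7 and a false discovery rate of 3.97%. It lies in a stretch of chromosome 1 from 39.0 to 43.0 Mb, chosen after the values were seen, where 9 TET2 peaks in OPA1 held 41 to 202 tags at folds of 3.70 to 10.04. The same stretch held 8 TET2 peaks in DMSO with 8 to 75 tags, 3 EGR1 peaks in OPA1 with 38 to 76 tags and 1 EGR1 peak in DMSO with 50. Long peaks with many tags and low folds there were thus listed with both antibodies and both treatments, and what part the local background has in the CITED4 peak was not tested.

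The next peaks by tags were CD1B with 37, the IL6R peak with 35, NUDT7 and CLPTM1L with 34 each and GTF2H2C_2 with 33. DUSP10, a phosphatase of stress kinases, RPL7L1, MEF2D, a transcription factor of the MEF2 family, and PDLIM2, an adaptor that acts on NF-kappa-B, had 27 each. Several of these were also low in fold, at 5.84 for CD1B, 6.58 for IL6R, 6.44 for MEF2D and 5.49 for RPL7L1. NUDT7, a peroxisomal hydrolase of coenzyme A, combined many tags with a fold of 15.4, the highest score of the set (178) and a false discovery rate of 0%, 797.5 bp after the gene start at chr16:77723071-77723552.

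By fold, the order was another. DUS2, a tRNA-modifying enzyme, came first at 26.7 with 17 tags, 526 bp beyond the gene's last base at chr16:68079722-68079970. COG4, a subunit of a Golgi tethering complex, and SLC12A3, a sodium-chloride transporter, each had a fold of 23.5, with 20 and 14 tags. SMAD7, the inhibitor of TGF-beta signalling, had 23.3 with 18 tags, PDP2 22.4 with 18 and RAB8A, a GTPase of vesicle traffic, 22.3 with 17. CWC27 (21.3), IFNA21 (20.0), BIK (19.2) and MSL1 (19.0) completed the 10 highest. Of these 10, DUS2, COG4, SLC12A3 and PDP2 lie on chromosome 16. No gene was in both orders of 10.

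**Figure D3:**
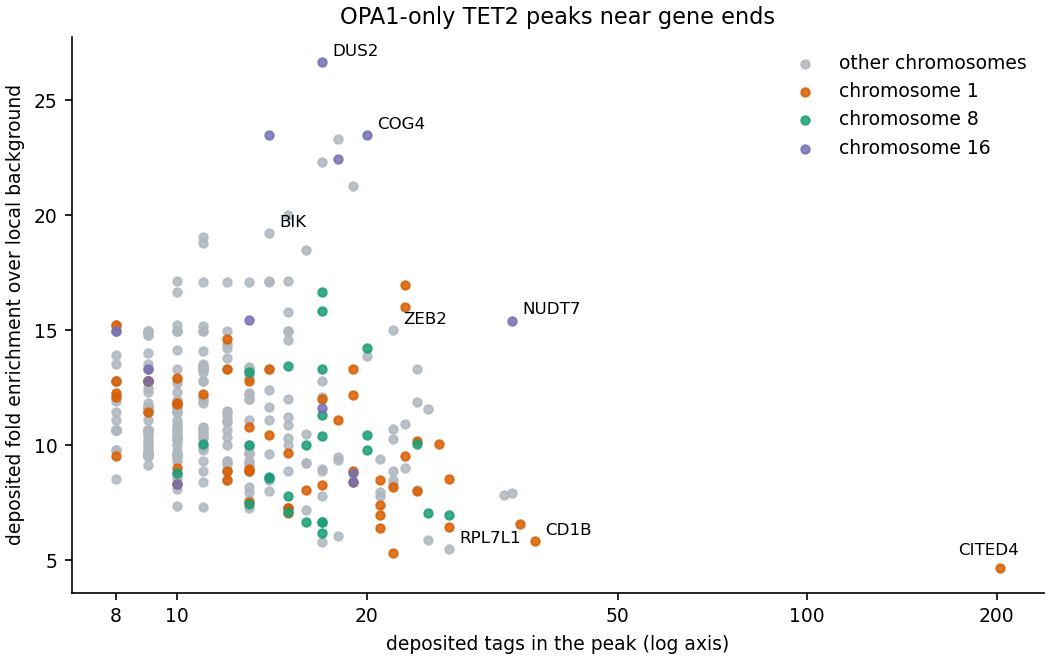
Each of the 351 peaks by its deposited tags (horizontal, log axis) and its deposited fold over local background (vertical), coloured for chromosomes 1, 8 and 16. CITED4 stands alone at 202 tags with the lowest fold, 4.69, and DUS2 has the highest fold, 26.7, with 17 tags.

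Peaks with a false discovery rate of 0% numbered 12 (3.42%), beside 6.42% of all TET2 peaks in OPA1. Beside NUDT7, DUS2, COG4, SMAD7, PDP2, RAB8A and CWC27 they were ADAMTS4 (23 tags), a matrix protease, ZEB2 (22), AKR1C3 (24), an enzyme of steroid and prostaglandin metabolism, CCDC15 (20) and PTK2 (17), the focal adhesion kinase. AKR1C3 and PTK2 were named for this value after it was seen. Apart from ZEB2 and SMAD7, none of the 12 was in a gene list.

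The genes near the peaks were compared with 16 lists of pathways and cell types. An end of 443 of 19970 protein-coding genes (2.22%) lay within 10000 bp of one of the 351 peaks, which is the level to read each list against, and 338 genes were the nearest to at least 1 peak. Over all lists 27 of 468 genes (5.77%) had a peak, counted also where another gene was nearer to it. A DMSO-only TET2 peak was near 10 of the 468 (2.14%), where the level over all genes was 1.11%, so the lists stood above all genes in both classes of peaks. The lists were drawn up with earlier results of these data known, so their shares are no independent evidence.

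Of the genes of DNA methylation and TET function, 5 of 29 (17.2%) had a peak. TET1, the sister enzyme of TET2, had a peak of 15 tags at fold 15.0 and a false discovery rate of 0.83%, 6852 bp into the gene from its start at chr10:68567050-68567328. CXXC5, which encodes a CpG-binding zinc-finger protein, had 12 tags at fold 10.4, 106 bp upstream of the start at chr5:139647073-139647313. UHRF2, a reader of modified cytosine, had 13 tags 7629 bp upstream. MBD4, a glycosylase of mismatched thymine at CpG sites, had 10 tags 3310 bp from its start. That peak lay outside MBD4 and inside the nearer gene IFT122, 3034 bp from the IFT122 start. HMCES, which binds abasic sites in DNA, had 8 tags 5876.5 bp before its last base. CXXC5 was the one of these 5 with a peak at its promoter window.

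Monocyte and granulocyte genes had a peak at 4 of 32 (12.5%). S100A8, a calcium-binding protein abundant in monocytes and neutrophils, had 24 tags at fold 10.19, 3369 bp beyond its last base at chr1:153386482-153386844. FCGR2A, an activating Fc receptor, had 8 tags 106 bp before its last base. ITGB2, the beta-2 integrin chain, had 10 tags and SIGLEC9, an inhibitory sialic acid receptor, 11, at 4903.5 and 3174.5 bp from an end. The SIGLEC9 peak was nearer to SIGLEC7. ITGB2 also had a DMSO-only peak within 10000 bp of an end. Of the myeloid transcription factors 2 of 28 (7.14%) had a peak. ZEB2, a repressor needed in monocyte development, had 22 tags at fold 15.0, 1043.5 bp beyond its last base at chr2:144382853-144383222, and IRF5, an inducer of inflammatory cytokines, had 10.

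Apoptosis genes had a peak at 3 of 30 (10.0%), each close to a gene end. PMAIP1, which encodes the BH3-only protein NOXA, had 10 tags 155.5 bp upstream of its start at chr18:59899731-59899950. BIK, another BH3-only gene, had 14 tags at fold 19.2, 135.5 bp outside the gene at chr22:43129706-43129989. TNFRSF10B, the death receptor DR5, had 11 tags 94 bp outside the gene. Cell cycle genes had 3 of 31 (9.68%). CCND3 had the 24 tags described with its sequence, E2F1, a driver of S-phase genes, had 11 tags 3915 bp upstream, and AURKA, a mitotic kinase, had 9 tags 8048 bp from an end. The AURKA peak lay outside AURKA and inside the nearer gene CSTF1.

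Signalling lists stood between 3.13 and 6.25%. For MAP kinase signalling it was 2 of 33 (6.06%), with MAP2K1, the kinase MEK1, at 14 tags and its pathway inhibitor SPRED2 at 10. For TGF-beta and BMP signalling it was 2 of 32 (6.25%), with SMAD7 at 18 tags and the signal transducer SMAD3 at 10, 1415.5 bp upstream of the start. G protein and cAMP signalling had 1 of 32 (3.13%), PRKAR2A, a regulatory subunit of protein kinase A, with 11 tags. Each of these rests on 1 or 2 genes.

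Leukaemia drivers and stem cell genes had 2 of 35 (5.71%), the stem cell antigen CD34 with 10 tags, 9449.5 bp before its last base, and the haematopoietic factor TAL1 with 15 tags. Interferon response genes had 1 of 30 (3.33%), the receptor chain IFNGR2, with 10 tags. Cytokines had 1 of 32 (3.13%), the chemokine CCL20, with 12 tags, and chromatin regulators 1 of 48 (2.08%), the histone methyltransferase KMT2B, with 12. The KMT2B peak was 9442.5 bp from an end of KMT2B and was nearest to LIN37. No peak was near any of the 31 textbook EGR1 targets, the 27 immediate early genes, the 20 ETS, KLF and SP factors or the 10 genes of opioid receptors and peptides. For lists of this size an expectation from 2.22% is below 1 gene, so the absence carries little weight.

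Gene families, defined by symbol, gave shares on both sides of the 2.22% of all genes. Zinc-finger genes (symbols in ZNF, ZFP, ZSCAN or ZBTB) had 11 of 601 (1.83%) and SLC transporters 15 of 398 (3.77%). Olfactory receptors had 1 of 392 (0.255%). No ribosomal protein gene (of 80), histone gene (of 74), keratin (of 152), protocadherin (of 65) or HLA gene (of 21) had a peak within 10000 bp of an end. Small families with higher shares were the F-box genes of ubiquitin ligases with 4 of 63 (6.35%) and the SIGLEC and leukocyte Ig-like receptors with 2 of 23 (8.70%). The 2 of the last family, SIGLEC7 and SIGLEC9, are neighbours within reach of 1 peak of 11 tags.

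Other immune genes, picked from the members after their values were seen, show the range of cell surface and signalling genes. IL6R, the interleukin-6 receptor chain, had 2 peaks, of 21 and 35 tags, 4713.5 and 1746 bp upstream of its start. CD1A also had 2, of 21 tags 3547 bp upstream and of 26 tags at its promoter. TREM1, an activating receptor of monocytes and neutrophils, had 14 tags 153.5 bp upstream of its start at chr6:41286701-41286970, and its relative TREML2 had 12. CD300A, an inhibitory receptor of leukocytes, had 15 tags at fold 17.1. CXCR5 and CXCR6, chemokine receptors, had 15 and 9, and MYD88, the adaptor of Toll-like receptors, had 9. DCSTAMP and OCSTAMP, which act in the fusion of osteoclasts and macrophages, had 25 and 13.

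In all 22 genes had 2 of the peaks within reach of their ends. Besides IL6R and CD1A they included NRROS, a myeloid protein that binds TGF-beta, with 11 and 13 tags, ATP6V0A1, a proton pump subunit, with 17 and 16, and SLC25A37, the mitochondrial iron importer of red cell precursors, with 14 and 16. SLFN11, a gene linked to sensitivity to DNA damage, had 8 and 10, and RAB8A had 10 and 17. Each pair was made of separate peaks of 1 library and shares that library. Neighbouring genes can share a pair, as DNAJC2, PMPCB and PSMC2 did, so there were fewer pairs than genes. At the other extreme, 1 peak upstream of LIN37, a subunit of the DREAM complex, was within reach of 7 genes, KMT2B, IGFLR1, U2AF1L4, PSENEN, LIN37, HSPB6 and PROSER3, with 12 tags.

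The peaks closest to any gene end were at TAGAP, a GTPase-activating protein of lymphocytes (18 bp), ZNF572 (19.5 bp), RXFP2 (20.5 bp), VMA12 (24 bp) and MED23 (26.5 bp). Those closest to a listed start, alternative starts included, were at VMA12 (24 bp), H6PD, an enzyme of the endoplasmic reticulum (26.5 bp), MED23 (26.5 bp), DGUOK, a mitochondrial nucleoside kinase (69.5 bp), and CD1A (75.5 bp). RPL7L1 (77 bp), DNAJC2 (93.5 bp), HROB (97 bp), WBP2 (99 bp) and CXXC5 (106 bp) came next. In all 33 peaks (9.40%) lay within 1000 bp of a listed start. The 26 peaks on chromosome 8, where no start was listed, could not count in this share or in the order by start. Starts of genes without a window on other chromosomes were missing too, so the share may be too low. At the other limit, the last peaks inside the distance were at KANK1 (9849 bp), SCAMP4 (9907 bp) and CCNYL1 (9993.5 bp), and the first outside it at SLC22A3 (10072.5 bp, 30 tags), ATP6V0D2 (10131 bp, 14 tags) and ETV3 (10225 bp, 30 tags).

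EGR1 peaks, which the choice of the peaks did not use, were rare beside them. In OPA1, 3 of the 351 peaks (0.855%, Wilson 95% interval 0.291 to 2.48%) shared bases with an EGR1 peak, against 1.43% of all TET2 peaks in OPA1. Within 10000 bp an EGR1 peak was listed for 5 (1.43%, 0.610 to 3.29%), against 1.96%, and within 100000 bp for 19 (5.41%). The other OPA1-only peaks had as few, with 2 of 555 deep in genes (0.360%, 0.0989 to 1.30%) and 9 of 607 far from genes (1.48%, 0.782 to 2.79%) within 10000 bp, and with shared bases at 0.180 and 0.494%. The rarity of EGR1 peaks was therefore common to all OPA1-only peaks. Peaks that met a TET2 peak in DMSO had an EGR1 peak within 10000 bp in 17 of 170 cases (10.0%, 6.34 to 15.4%), and those of them near gene ends in 6 of 45 (13.3%, 6.26 to 26.2%). These intervals lie above that of the OPA1-only peaks near gene ends. The peaks in both treatments also held more tags, with a median of 19 against 12, and the part of that in the difference was not tested.

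The 3 shared sites were at IRF5, MB and NIBAN2. At IRF5 the TET2 peak had 10 tags at chr7:128949084-128949288, 852 bp before the gene's last base, and the EGR1 peak had 9 tags at chr7:128949095-128949260, with 166 bp in common. At the start of NIBAN2 the TET2 peak had 17 tags, a fold of 12.8 and a false discovery rate of 0.83%, centred 184.5 bp upstream, and the EGR1 peak had 8 tags with 147 bp in common. Neither EGR1 site searched for was in its printed window. At MB, the myoglobin gene, the TET2 peak had 9 tags and the EGR1 peak 8, with 94 bp in common. EGR1 peaks at greater distance were near HAUS6 (3981 bp) and ADIPOR1 (8587 bp), and the false discovery rates of these 5 EGR1 peaks were 20.9 to 22.8%.

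In DMSO, EGR1 peaks stood within 10000 bp of 2 of the 351 (0.570%, 0.156 to 2.05%), against 0.713% of all TET2 peaks in OPA1. One overlapped the peak at LOC124900420, where TET2 had 13 tags and EGR1 9, with 195 bp in common, and the other was 9484.5 bp from the peak at WASHC3. The shares for DMSO and OPA1 come from the same 351 peaks and from 1 EGR1 library per treatment. Their intervals cover counting error only, and a difference in EGR1 nearness between treatments was not tested.

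**Figure D4:**
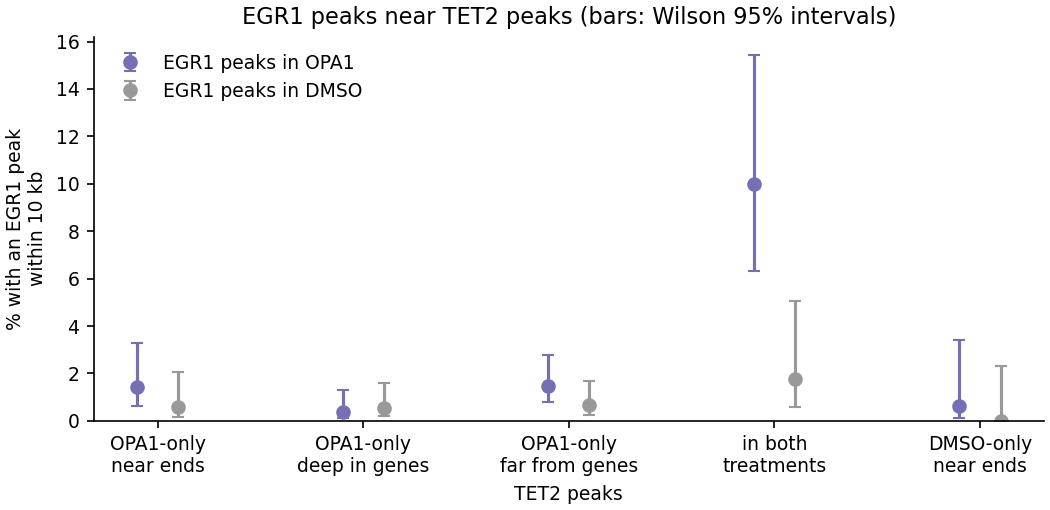
Share of TET2 peaks with the centre of an EGR1 peak within 10 kb (vertical axis, percent) in 5 classes of TET2 peaks, for EGR1 peaks listed in OPA1 and in DMSO; bars are Wilson 95% intervals. OPA1-only TET2 peaks near gene ends stand at 1.43% for EGR1 in OPA1 and TET2 peaks in both treatments at 10.0%.

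Distances to TET2 peaks of the DMSO control follow in part from the choice of peaks, which removed those that met one. Of the 351, 3 had a DMSO peak within 10000 bp, 38 (10.8%) within 100000 bp and 217 (61.8%) within 1 Mb. At MEF2D the DMSO peak, of 24 tags, was 2343 bp from the OPA1-only peak of 27 tags, and OPA1 had a second peak of 36 tags at the DMSO site itself. At OCSTAMP the DMSO peak of 14 tags, 8035.5 bp from the OPA1-only peak of 13, likewise coincided with an OPA1 peak of 22 tags. SIGLEC9 was the other gene with a peak of both treatments near an end, where OPA1 had 37 tags. At TNS1, an adhesion protein gene, a DMSO-only peak of 8 tags lay 6081.5 bp from the OPA1-only peak of 10. Of the 443 genes, ITGB2, NR1I2, SF1 and TNS1 also had a DMSO-only peak near an end, among 221 genes with such a peak. The deposited lists give no tags for DMSO at these sites, and the lowest number listed is 8, so the absence of a peak from the DMSO list does not show that TET2 was absent from the site.

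By chromosome, the peaks were uneven, as was the whole list. Per 1000 protein-coding genes there were 36.4 on chromosome 8 (26 peaks), 26.2 on chromosome 1 (54 peaks) and 26.1 on chromosome 20, against 8.26 on chromosome 14 and 2.36 on X (2 peaks). The 26 peaks of chromosome 8 were 22.03% of its 118 OPA1-only peaks, near the 23.2% over all chromosomes, and the 54 of chromosome 1 were 32.0% of 169. The share was higher still on chromosomes 9 (36.4%), 17 (40.4%) and 19 (63.6%). The median number of tags was 17 on chromosomes 8 and 16 and 15 on chromosome 1, where all TET2 peaks in OPA1 had medians of 15, 12 and 14. Of the 45 peaks with at least 20 tags, 17 were on chromosome 1, 7 on chromosome 6, 6 on chromosome 8 and 5 on chromosome 11. The median fold was 9.90 on chromosome 8 and 9.53 on chromosome 1 but 14.95 on chromosome 16. Chromosome 18, with 4 peaks, also had a median fold of 14.95. In the TET2 list of DMSO the median number of tags was also highest on chromosome 8 (11), while chromosome 1 (10) stood level with chromosomes 6, 13, 20 and 21, beside 9 over the whole list. Chromosome 16, at 9, did not stand out there.

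**Figure D5:**
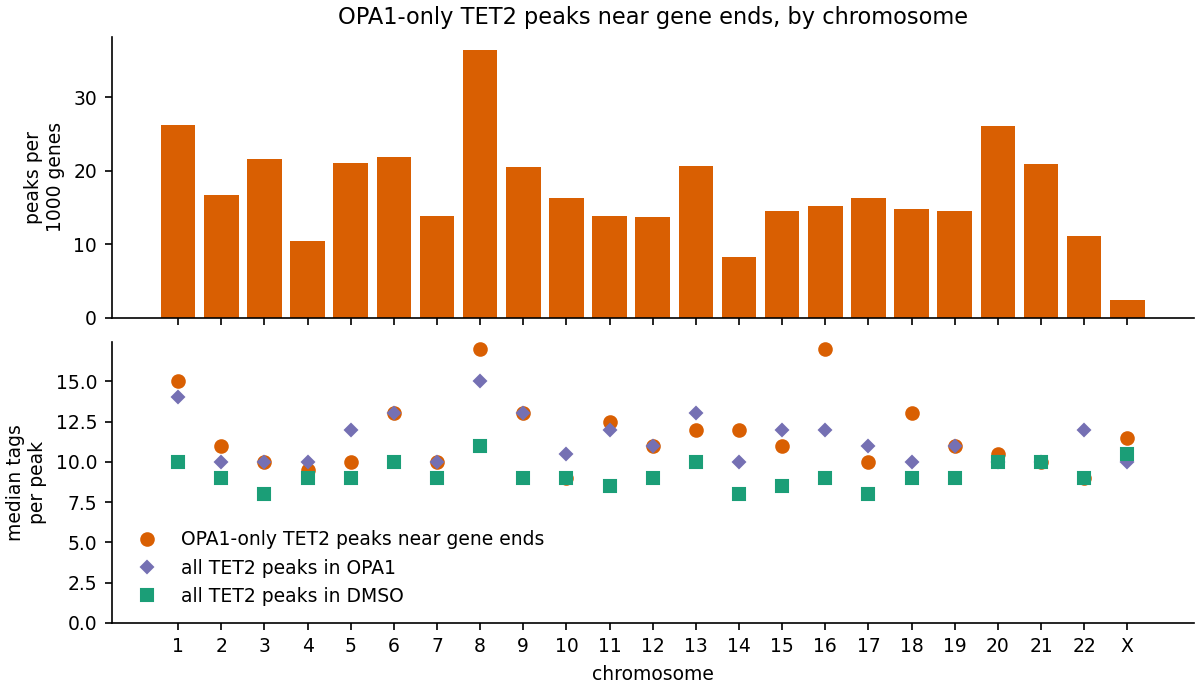
Top, OPA1-only TET2 peaks near gene ends per 1000 protein-coding genes on each chromosome; bottom, their median tags per peak (circles) beside the medians of all TET2 peaks in OPA1 (diamonds) and in DMSO (squares). Chromosome 8 has the most peaks per 1000 genes, 36.4, and shares with chromosome 16 the highest median, 17 tags.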

How the data were processed

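EGR1 and TET2 ChIP libraries of THP-1 cells in DMSO or OPA1, 1 of each, with their inputs, gave 4 peak lists. Per the file headers, the authors called each list with MACS 1.4.2 against the input of the same treatment, at a p-value cutoff of 1e-05. Bowtie2 2.2.6, HOMER and GRCh38 are named in the submitters' processing notes. Filtered tags per ChIP library numbered 19779007 to 19900311, and inputs held 20075020 and 20038155. The deposited tag number is a raw count per peak. The deposited score is 10 times the negative log10 of the p-value, the deposited fold is a ratio over local background, and the false discovery rate was deposited in percent.

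Here peaks were taken as overlapping at 1 bp and placed against a RefSeq table of GRCh38.p14 (19970 protein-coding genes on chromosomes 1 to 22 and X). Strand came from RefSeq promoter windows (15811 of these genes). All 468 list names matched. Shares have Wilson 95% intervals and tags exact Poisson 95% intervals, which cover counting error only. PCR reads are not independent molecules. With 1 library per group, treatments were not tested against each other and have no replicate check. Overlap and distance code was tested on simulated data. Python 3.11.15, pandas 2.3.3, NumPy 2.4.6 and SciPy 1.17.1 were used.

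Named were the 10 peaks with the most tags, the 10 of highest fold, those with an EGR1 peak within 10000 bp, list genes, the 10 closest to an end or start, genes with 2 peaks or a DMSO-only peak, the peak with the most gene ends and those at the distance limit. Genes named otherwise are said to be so. The members and lists were chosen with earlier results of these data known. Alternatives were stricter false discovery rates and scores, other distances, and other definitions of overlap and centre.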

Additional observations from a re-analysis of the deposited data

How the results depend on the processing

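Of 51 values under alternatives, 34 stayed (shares and medians within the 95% interval of the reported value, counts within 1.5 times of it) and 17 moved. At a false discovery rate of at most 5% in both TET2 lists there were 305 peaks, with a median of 13 tags. They are no subset of the 351, of which 282 were at or under 5%. The limit also removed DMSO peaks, so OPA1 peaks that met only such a DMSO peak were let in. The DMSO-only class then held 88 peaks beside 712 without the limit, and 27 of the 88 (30.7%) lay near a gene end. At a score of at least 100, 16 peaks remained, with a median of 18.5 tags, 25% within 1000 bp of an end, 43.8% inside a gene, 6.25% with an EGR1 peak in OPA1 and 0.0% in DMSO within 10000 bp, and 3 list genes. At 5000 bp there were 210 peaks, 13.9% of OPA1-only and 16.01% of DMSO-only peaks, and 31.9% of the 210 lay within 1000 bp. At 1000 bp the shares were 4.43 and 4.21%. With EGR1 peaks counted within 100000 bp they were 5.41% in OPA1 and 2.56% in DMSO. The wider or narrower distances and the higher score change the counts by construction, and the cause of the other moves was not tested. Few tags per peak limit all values. No paired analysis was possible because each group has 1 library, and no library could be left out for the same reason.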
